A study of Homo sapiens with 18 samples.

Results

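Chromatin accessibility after 5 days of cetuximab was compared with that after PBS in SCC1, a human head and neck squamous cell carcinoma (HNSCC) line. Cetuximab is an antibody that binds the epidermal growth factor receptor (EGFR) and blocks its ligands, and it was given at 100 nM, while PBS is the vehicle. The assay was ATAC-seq, where the transposase Tn5 cuts open chromatin and adds sequencing adapters to it. The comparison used cetuximab libraries 1, 2 and 3 and PBS libraries 1 and 3 (SCC1 PBS library 2 was not analysed here). Of the 115087 regions in the table, the 25% with the lowest mean signal were left out and 86321 were tested. A region within 1 kb of a start site of a protein-coding gene was taken as a promoter region (14551 regions), and any other as a distal region (71770 regions). The series also holds the HNSCC lines SCC6 and SCC25 under the same treatments, which enter here as values set beside those of SCC1. SCC1 is an established line, so the stroma and immune cells of a tumour are missing from this model. Nothing states whether the replicates were separate cultures, and the p-values then measure the spread between these libraries, which may be technical.

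EGFR is a receptor tyrosine kinase that many HNSCC cells carry at high levels, and ligand binding starts the RAS, RAF, MEK and ERK kinase cascade and the PI3K and AKT pathway. ERK drives the transcription and the stability of AP-1 factors, which are dimers of FOS and JUN proteins that bind TGANTCA letters, largely at distal enhancers. Promoters of broadly used genes are rich in G and C and often hold GC boxes bound by KLF and SP factors, while TEAD factors, the DNA-binding partners of YAP1 and TAZ in the Hippo pathway, bind ACATTCC letters at enhancers.

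Distal regions were lower after cetuximab more often than higher, and promoter regions were higher far more often than lower. The following sequences are the central 300 bases of strongly called regions, shown because these letters recur in the comparison of regions that gained and lost signal. They come from the plus strand of the human genome build GRCh37 (hg19). They were picked from the regions with the smallest adjusted p among those whose window holds the motif, so that its presence in them is no finding. In the 4 distal regions that fell, capitals mark the AP-1 letters TGANTCA, which read the same on both strands. The 4 windows lie at chr11:92764548-92764847 (nearest start site MTNR1B), chr6:148467881-148468180 (SASH1), chr1:217103352-217103651 (an intron of ESRRG) and chr3:177307766-177308065 (TBL1XR1).
MTNR1B: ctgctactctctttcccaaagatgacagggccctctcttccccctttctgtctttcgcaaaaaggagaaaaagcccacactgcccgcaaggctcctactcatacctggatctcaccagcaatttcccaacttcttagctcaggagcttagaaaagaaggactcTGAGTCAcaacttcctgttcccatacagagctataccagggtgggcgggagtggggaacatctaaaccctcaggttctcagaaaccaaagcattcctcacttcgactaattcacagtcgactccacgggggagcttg
SASH1: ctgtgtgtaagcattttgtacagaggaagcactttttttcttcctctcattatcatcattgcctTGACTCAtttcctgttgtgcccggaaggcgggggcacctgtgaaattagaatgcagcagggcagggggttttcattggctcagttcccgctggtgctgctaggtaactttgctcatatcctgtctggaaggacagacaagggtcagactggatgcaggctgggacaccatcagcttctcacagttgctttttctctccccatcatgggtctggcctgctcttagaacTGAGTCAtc
ESRRG: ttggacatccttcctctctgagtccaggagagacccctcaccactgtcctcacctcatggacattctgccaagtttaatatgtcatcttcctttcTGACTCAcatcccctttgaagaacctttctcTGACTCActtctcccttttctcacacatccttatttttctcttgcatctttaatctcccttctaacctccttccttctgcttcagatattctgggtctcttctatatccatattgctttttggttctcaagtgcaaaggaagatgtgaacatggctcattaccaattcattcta
TBL1XR1: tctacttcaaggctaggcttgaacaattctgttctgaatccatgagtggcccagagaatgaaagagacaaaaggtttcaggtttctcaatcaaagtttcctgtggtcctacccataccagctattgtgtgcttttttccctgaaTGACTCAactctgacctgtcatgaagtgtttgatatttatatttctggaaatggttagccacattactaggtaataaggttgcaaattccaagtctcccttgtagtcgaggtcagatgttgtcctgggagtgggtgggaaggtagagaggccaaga

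The next window lies in a distal region that rose, at chr2:233250454-233250753 near ALPP. Capitals mark the TEAD letters ACATTCC, of which it holds 2 copies.
ALPP: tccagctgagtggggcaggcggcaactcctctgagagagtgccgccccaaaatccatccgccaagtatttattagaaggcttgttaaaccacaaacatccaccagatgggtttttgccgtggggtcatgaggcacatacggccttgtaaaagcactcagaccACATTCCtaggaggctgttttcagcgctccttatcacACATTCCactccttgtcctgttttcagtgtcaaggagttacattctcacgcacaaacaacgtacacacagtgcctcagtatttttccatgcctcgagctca

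The last windows lie in promoter regions that rose, at chr19:50269734-50270033 for AP2A1 and at chr7:100026616-100026915 for MEPCE and ZCWPW1, whose start sites share the region. Capitals mark the KLF/SP letters GGGCGGG or their reverse complement CCCGCCC, of which each window holds 3 copies.
AP2A1: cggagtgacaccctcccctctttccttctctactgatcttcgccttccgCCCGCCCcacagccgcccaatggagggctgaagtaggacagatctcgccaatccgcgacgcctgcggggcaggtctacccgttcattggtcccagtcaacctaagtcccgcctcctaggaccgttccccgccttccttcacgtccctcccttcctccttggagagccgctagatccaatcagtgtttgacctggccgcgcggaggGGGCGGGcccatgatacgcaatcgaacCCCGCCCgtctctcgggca
MEPCE and ZCWPW1: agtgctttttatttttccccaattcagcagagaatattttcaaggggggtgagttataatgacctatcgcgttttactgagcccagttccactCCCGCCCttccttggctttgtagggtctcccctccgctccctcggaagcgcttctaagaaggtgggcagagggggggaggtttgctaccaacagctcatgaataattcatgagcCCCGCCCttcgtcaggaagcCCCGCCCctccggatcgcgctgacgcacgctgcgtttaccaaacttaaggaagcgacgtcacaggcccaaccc

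The 5 libraries held 2194851 to 4171650 reads in regions, 7 to 15 in the median region, and 21.8% to 28.8% of all regions in a library were at the floor of 1 read. Pairs of replicates had Pearson's r of 0.870 to 0.908 for the log2 signal across regions, which are not independent replicates. Reads in promoter regions made up 41.6%, 38.5% and 42.3% of the reads in the cetuximab libraries and 34.8% and 34.9% in the PBS libraries. The share of reads in regions with a GC content above 60% was 37.7% to 42.0% after cetuximab and 33.9% in each PBS library. Of 8 squamous epithelium markers, all had a promoter region that was tested, and their summed promoter signal was 890 to 1193 after cetuximab and 618 to 795 after PBS. Only 2 of 8 fibroblast markers had a tested promoter region (COL1A1 among them), with a summed signal of 193 to 227 after cetuximab and 122 to 159 after PBS. Of 8 leukocyte markers, CD14 alone had a tested promoter region, at 24.1 to 42.3 after cetuximab and 81.5 to 92.4 after PBS. The part of these marker levels in the results below was not tested. In such bulk libraries, fewer cells with an open region and a less open region in each cell cannot be told apart.

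The signal is the number of reads in a region on a scale that makes the libraries comparable, and a log2 change is cetuximab against PBS on the log2 of the signal plus 1. With limma and an adjusted p under 0.05, 1976 promoter regions were higher (13.6% of those tested) and 233 were lower (1.6%). Among distal regions, 1973 were higher (2.75%) and 5431 were lower (7.57%). Distal regions made up 95.9% of all regions called lower, while promoter and distal regions gave nearly the same number of higher calls. Among called regions alone, the median log2 change of those higher was 0.90 in promoter regions and 1.32 in distal regions, and that of those lower was -1.10 and -1.39. Distal regions had less signal, with a median of 60.3 after cetuximab in the higher calls against 147 in promoter regions, and a region of low signal needs a larger change to be called, so these medians do not compare the sizes of change in the 2 classes. Over all tested regions, the median was 0.18 in promoter and -0.17 in distal regions. Of the promoter regions called, 1863 of 1976 higher and 232 of 233 lower had no overlap between the cetuximab and PBS libraries. Of the distal regions called, it was 1907 of 1973 higher and 5390 of 5431 lower. A lack of overlap at a called region below thus adds little to its call. All counts rest on 2 PBS libraries. Without PBS library 1, they were 492 and 24 in promoter regions and 592 and 880 in distal regions, higher and lower in turn, and without PBS library 3 they were 888 and 40, and 989 and 1367. Removing the trend of the signal with GC content in each library gave 1023 higher and 548 lower promoter regions and 2697 higher and 3545 lower distal regions. Centring each library on its median gave 3393 and 114, and 3459 and 3533, so the share of calls that were higher moved from 89.5% to 96.7% in promoter regions, and from 26.6% to 49.5% in distal regions. With the GC trend removed it was 65.1% and 43.2%.

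The peak lists were called in each library. Of the distal regions called lower, a peak overlapped 79.6% and 78.2% in the PBS libraries, and 25.3%, 12.2% and 19.9% in the cetuximab libraries. Over all tested distal regions, the shares were 34.6% and 33.1% in the PBS libraries and 23.3%, 10.4% and 19% in the cetuximab libraries. The distal regions called lower thus stood above all distal regions in PBS and near them after cetuximab. Of the distal regions called higher, the shares were 55.1%, 22.7% and 45.3% after cetuximab and 22.9% and 21.5% after PBS. Cetuximab library 2, the shallowest, had 13035 peaks against 23017 to 36033 in the other libraries, and its share of distal higher regions with a peak lay close to those of PBS. Of the promoter regions called higher, a peak overlapped 80.2%, 39.1% and 74.8% in cetuximab libraries 1, 2 and 3 and 54.5% and 56.4% in the PBS libraries, so cetuximab library 2 lay under PBS there. Over all promoter regions, it had a peak in 32.8%, against 55.3% to 59.7% in the other libraries. The peaks and the signal come from the same reads, so they are no independent measurement.

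Among distal regions that lost signal, the smallest adjusted p lay near RHOB. This region, 43.3 kb from the start site of RHOB, which encodes a small GTPase that acts on actin and endosomes, lies between genes at chr2:20690137-20690883. Its signal was 62.2, 81.8 and 57.9 after cetuximab and 341 in each PBS library, and it fell by 2.34 ± 0.23 on the log2 scale (SE, limma, adjusted p = 2.63e-17). The groups lie far apart, with the highest cetuximab library well under both PBS libraries. A region in an intron of NT5E, which encodes the ectoenzyme CD73 that makes extracellular adenosine, had 71.1, 75.9 and 53.2 against 349 and 289 (log2 change -2.25 ± 0.23, limma adjusted p = 6.62e-16). It lies 6.18 kb from the start site, at chr6:86173956-86174914, and again no cetuximab library reached the PBS level. The MTNR1B region printed above, 61.5 kb from the start site of this melatonin receptor gene, had 20.3, 27.3 and 12.5 against 204 and 171 (log2 change -3.22 ± 0.34, limma adjusted p = 7.99e-16). The SASH1 region, 196 kb from the start site of this signalling scaffold gene, had 39.3, 27.3 and 23.5 against 217 and 186 (log2 change -2.74 ± 0.30, limma adjusted p = 1.15e-14). Each library of cetuximab was under each of PBS in these regions. It was so too in those nearest to GSDMC (990 kb away) and TMEM132C (1214 kb away), genes of a gasdermin and of a membrane protein. The leading regions were picked for this lack of overlap, which 19149 of 71770 tested distal regions showed in this direction. A nearest start site is a name for a place, and whether the region acts on that gene was not tested.

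Among distal regions that gained signal, the smallest adjusted p lay 51.7 kb from the start site of RDX, which encodes radixin, a linker of actin to the plasma membrane. At chr11:110219181-110219446, between genes, the signal was 105, 167 and 139 after cetuximab and 11.7 and 22.3 after PBS, a fold of 7.89 on the fitted scale (log2 change 2.98 ± 0.31, limma adjusted p = 7.15e-16). A region in an intron of DPH6, a diphthamide synthesis gene, 146 kb from its start site, had 113, 109 and 106 against 18.2 and 4.47 (log2 change 3.43 ± 0.36, limma adjusted p = 3.01e-15). Every cetuximab library was above both PBS libraries at these places. The ALPP region printed above, 6.88 kb from the start site of this placental alkaline phosphatase gene, had 142, 107 and 127 against 22.1 and 23.4 (log2 change 2.40 ± 0.30, limma adjusted p = 1.63e-11). A region in an intron of ZBTB16, whose nearest start site is that of NNMT, the nicotinamide methyltransferase, at 78.1 kb, had 184, 144 and 227 against 40.3 and 30.1 (log2 change 2.35 ± 0.26, limma adjusted p = 1.5e-14). A further 2 regions lie 46.9 kb from ILDR1 and in an intron of KCNMB2, a potassium channel subunit gene, with log2 changes of 2.89 ± 0.32 and 2.25 ± 0.25. These regions were picked among those without overlap of the groups, which 9284 of 71770 tested distal regions showed in this direction. All 12 distal regions described here, lower and higher, kept their call in each of 17 other fits.

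The 6 promoter regions that rose with the smallest adjusted p lay on chromosomes 11, 17 and 19. The promoter of UNC13D, whose product primes secretory granules for release, at chr17:73840533-73841653, had a signal of 463, 341 and 474 after cetuximab and 168 and 166 after PBS, a fold of 2.51 on the fitted scale (log2 change 1.33 ± 0.17, limma adjusted p = 8.5e-11). The region shared by H3-3B, a gene for the histone variant H3.3, and UNK had 321, 294 and 355 against 109 and 127 (log2 change 1.44 ± 0.19, limma adjusted p = 2.86e-10). At AP2A1, which encodes a subunit of the clathrin adaptor AP-2 that takes up surface receptors, the values were 558, 477 and 579 against 267 and 233 (log2 change 1.10 ± 0.15, limma adjusted p = 2.36e-09). The PBS values lay close together in these regions and under all cetuximab values. EIF5A, a translation factor gene, PRMT1, an arginine methyltransferase gene, and the region shared by DEAF1, EPS8L2 and TMEM80 followed, with log2 changes of 1.29 ± 0.18, 1.15 ± 0.16 and 1.26 ± 0.18. The 6 were picked among regions without overlap of the groups, which 4457 of 14551 tested promoter regions showed in this direction. All 6 were called in each of 17 other fits. From the 10th to the 90th percentile, the log2 changes of promoter regions called higher spanned 0.63 to 1.32.

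Among the promoter regions that fell, that of NALCN, a sodium leak channel gene, had 55.8, 37.0 and 28.2 after cetuximab and 174 and 132 after PBS (log2 change -1.94 ± 0.29, limma adjusted p = 5.67e-08). The promoter of ADTRP had 59.7, 91.5 and 43.8 against 186 and 199 (log2 change -1.61 ± 0.26, limma adjusted p = 2.63e-07). At CLDN12, a gene of the claudin family of tight junction proteins whose region also overlaps GTPBP10, the signal was 15.2, 25.3 and 28.2 against 101 and 103 (log2 change -2.15 ± 0.36, limma adjusted p = 1.4e-06). No cetuximab library reached a PBS library in these 3 regions, as their choice required. Of 14551 tested promoter regions, 1616 had no overlap in this direction. A promoter region of MT2A, a metallothionein gene whose product binds zinc and copper, had 218, 119 and 213 against 380 and 362 (log2 change -1.06 ± 0.19, limma adjusted p = 5.12e-06). SLC43A3, a nucleobase transporter gene, and ROBO4, an endothelial guidance receptor gene, fell by 1.97 ± 0.33 and 1.92 ± 0.35. Promoter regions called lower were poorer in G and C, with a median GC content of 52.2% against 65.4% for all tested promoter regions and 67.7% for those called higher.

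**Figure D1:**
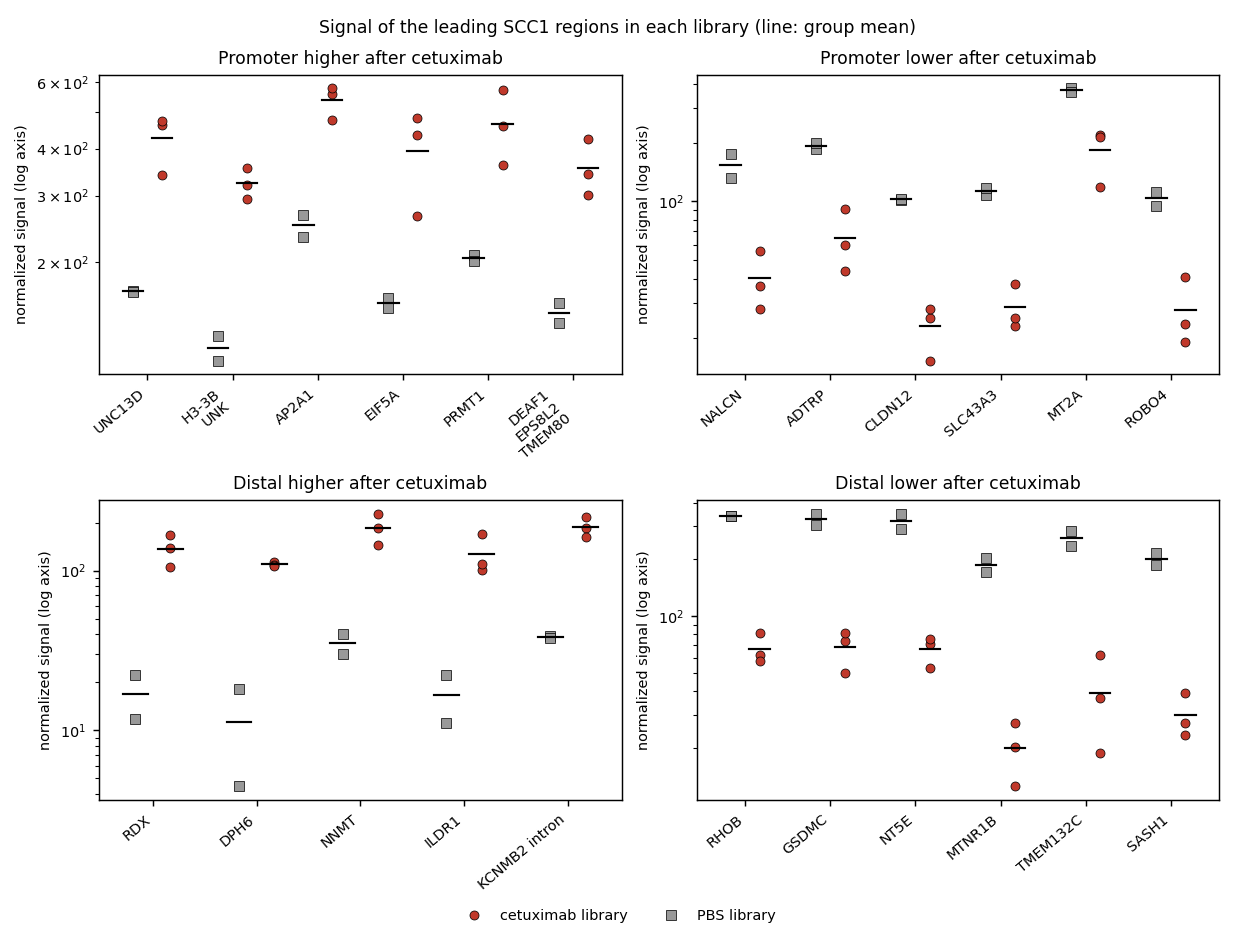
Signal of the leading promoter and distal regions in each direction, on a log axis, with a point per SCC1 library (cetuximab circles, PBS squares) and a line at each group mean. The regions drawn were picked among those where the cetuximab and PBS libraries do not overlap. RDX, at 105 to 167 after cetuximab against 11.7 and 22.3 after PBS, is among those with the widest gap.

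The location of a distal region went with its direction. Regions called higher thinned with distance from a start site, from 4.38% (556 of 12705) at 1 to 10 kb, over 2.92% at 10 to 50 kb and 2.29% at 50 to 100 kb, to 1.86% (406 of 21860) beyond 100 kb. Regions called lower made up 6.31% (802 of 12705), 7.66%, 8.22% and 7.84% at the same distances. Exons of genes held 5.13% higher and 6.73% lower distal regions, introns 2.75% and 7.37%, and stretches between genes 2.56% and 7.78%. The median GC content fell with distance as well, from 49.6% at 1 to 10 kb to 44.6% beyond 100 kb, and its part in the trend was not tested.

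**Figure D2:**
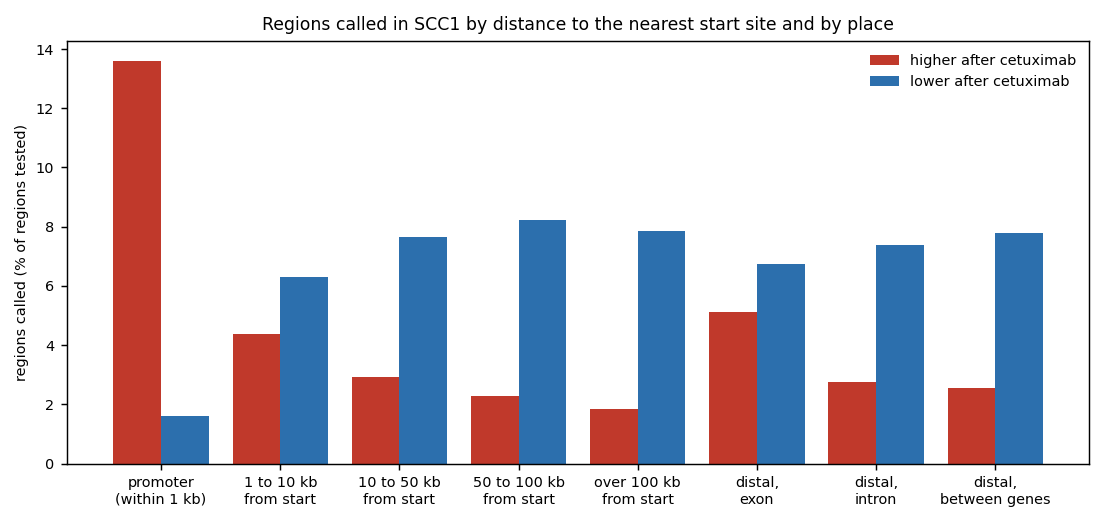
Share of regions called higher and lower after cetuximab (percent of those tested) for promoter regions, for distal regions by distance to the nearest start site, and for distal regions in exons, in introns and between genes. Higher calls drop from 13.6% of promoter regions to 1.86% of regions beyond 100 kb, while lower calls rise from 1.6% to between 6.31% and 8.22%.

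Promoter regions that gained signal were spread unevenly over the chromosomes. On chromosome 17, 42.4% (319 of 752) of promoter regions were called higher, on chromosome 22 36.2% (112 of 309) and on chromosome 19 35.7% (325 of 910). Chromosome 16 followed with 22.5% and chromosome 11 with 18.3%. At the other end, no promoter region of 224 was called higher on chromosome 18, and 2 of 306 were on chromosome X. On chromosomes 17, 19 and 22 together, grouped here because their shares were the highest, the share was 38.4% (756 of 1971), with 4 regions called lower. On all others it was 9.70% (1220 of 12580). Between 60% and 70% GC content, the shares were 42.0% (405 of 965) and 10.6% (545 of 5150). The part of GC content in the gap was not tested. With the GC trend removed, 21.7% of promoter regions were called higher on these 3 chromosomes and 4.73% on the others. Without PBS library 1, 245 of their promoter regions were called higher, and without PBS library 3, 377. Reads in regions of the 3 chromosomes made up 9.42%, 7.54% and 9.02% of a cetuximab library and 6.05% and 6.11% of a PBS library, and the part of these shares in the result was not tested.

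Within chromosomes, the promoter windows of 10 Mb with the highest share called higher were the first of chromosome 17 (55.0%, 77 of 140), that from 70 to 80 Mb on chromosome 17 (52.6%, 70 of 133), that from 60 to 70 Mb on chromosome 11 (49.0%, 103 of 210) and that from 40 to 50 Mb on chromosome 19 (48.2%). Distal regions followed in part. On chromosomes 17, 19 and 22, 9.29% (353 of 3800) of them were called higher and 2.55% lower, against 2.38% and 7.85% on all others. Distal losses were more even, and the highest shares called lower were in windows of chromosome 4 from 10 to 20 Mb (19.4%, 42 of 216), chromosome 15 from 100 Mb on (18.8%, 16 of 85) and chromosome 3 from 20 to 30 Mb (18.1%, 40 of 221). These windows were picked by their values among 107 promoter and 290 distal windows.

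**Figure D3:**
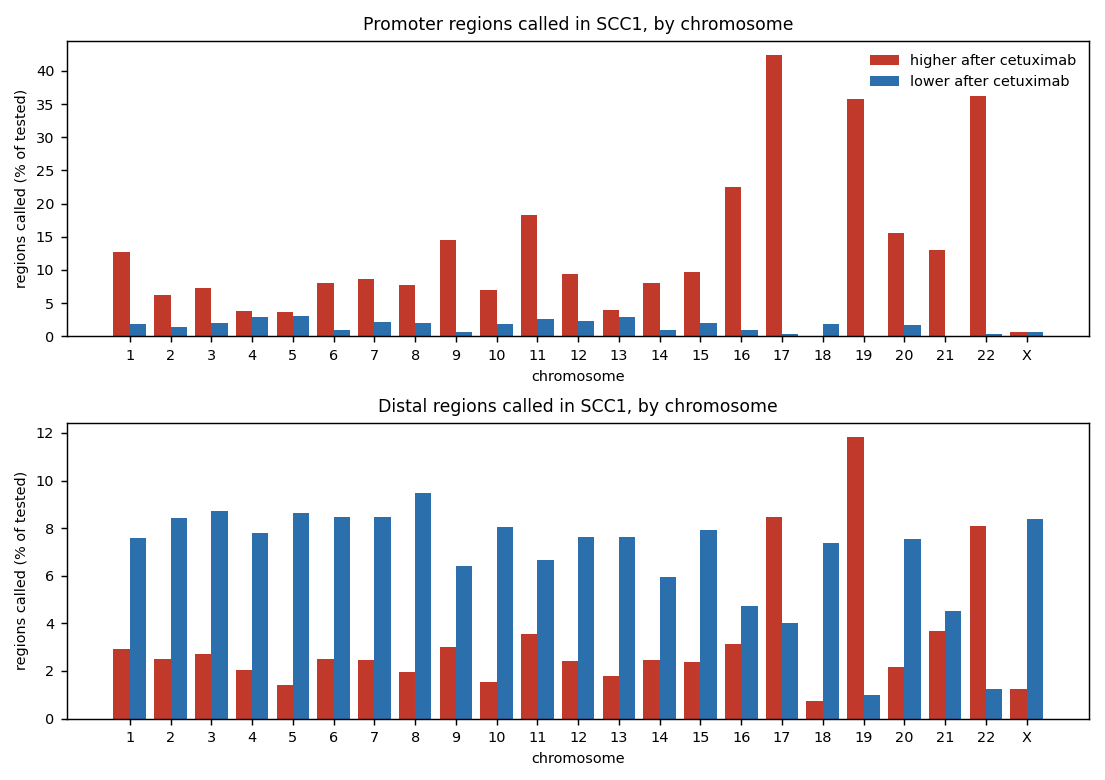
Share of tested regions called higher and lower after cetuximab on each chromosome (percent), promoter and distal regions apart. Promoter regions of chromosomes 17, 19 and 22 stand at 42.4%, 35.7% and 36.2% called higher, while none was on chromosome 18.

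Distal regions that fell held AP-1 letters more often than those that rose. TGANTCA was in the central 300 bases of 62.7% (3403 of 5431) of distal regions called lower, of 42.2% of all tested distal regions and of 23% (454 of 1973) of those called higher. The share of regions called lower rose with the number of copies, from 4.89% of 41468 regions with none over 10.2% of 24423 with 1 copy to 15.5% of 5879 with 2 or more. Regions called higher went from 3.66% over 1.62% to 0.987%. The median log2 change was -0.05 without a copy, -0.32 with 1 and -0.47 with 2 or more. Among the third of distal regions with the lowest GC content, AP-1 letters were in 67.7% of regions called lower and 28.6% of those called higher, and among the third with the highest GC content in 55.8% and 19.8%. Across 17 other fits the shares ranged from 61.4% to 65.3% of regions called lower and from 20.0% to 27.2% of those called higher. Reads in distal regions with AP-1 letters made up 29.7% and 29.4% of the PBS libraries and 23.7%, 25.2% and 23.3% of the cetuximab libraries. Promoter regions had the same order at a lower level, with AP-1 letters in 36.9% of those called lower, 9.68% of all and 3.90% of those called higher.

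Other letters were more frequent where distal signal rose. TEAD letters (ACATTCC) were in 15.4% of distal regions called higher, 9.52% of all and 8.08% of those called lower, and among the third with the lowest GC content the shares were 22.3%, 11.2% and 9.23%. TFAP2 letters (GCCNNNGGC) were in 18.7%, 10.6% and 9.85%. Within the third of lowest GC content the TFAP2 shares were 5.77%, 4.02% and 3.45%, within the third of middle GC content 9.09%, 8.21% and 8.28%, hardly apart, and within that of the highest 31.8%, 19.7% and 20%. KLF/SP letters (GGGCGGG) were in 14.6%, 5.06% and 2.87% of distal regions, and in 62.1%, 47.3% and 15.5% of promoter regions. Among the third of distal regions with the lowest GC content they were in 0.36%, 0.518% and 0.351%, with no excess among higher calls, then in 3.36%, 1.82% and 1.23% at middle GC content and in 29.5%, 12.9% and 8.48% at the highest. ETS letters (CCGGAAG) were in 19.3% of promoter regions called higher, 14.0% of all and 5.15% of those called lower. NF-kB letters (GGGNNTTCC) were in 7.79% of distal regions called lower and 5.74% of all, and CEBP letters (TTGCNCAA) in 6.79% and 5.03%. The CTCF core (AGGGGGCGC) was in 0.166% of distal regions called lower and 0.511% of all. NFI letters (TTGGCA) stood at 18.8%, 18.3% and 18.2% of distal regions called higher, tested and called lower, and so hardly varied. Letters were read on both strands in 15 searches, and the KLF/SP letters can overlap those of TFAP2 and CTCF. A match is a description of the letters and shows no binding.

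**Figure D4:**
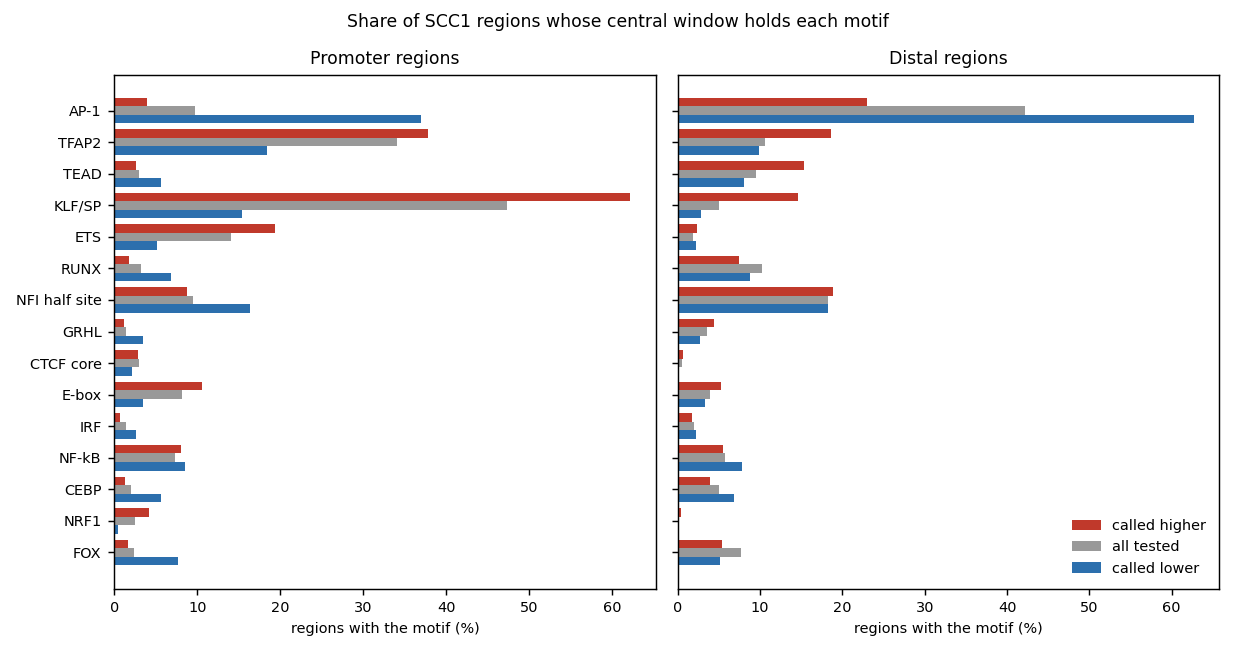
Share of regions (percent) whose central 300 bases hold each motif, for regions called higher, called lower and all tested, promoter and distal apart. AP-1 letters are in 62.7% of distal regions called lower against 23% of those called higher, and KLF/SP letters in 62.1% of promoter regions called higher.

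The receptor that cetuximab binds and its relatives gave 1 call at their promoters. Of 8 promoter regions of EGFR, ERBB2, ERBB3 and ERBB4, 1 was called higher (12.5%, against 13.6% of all) and none lower. It was the EGFR promoter, with a signal of 207, 134 and 202 after cetuximab and 124 and 109 after PBS (log2 change 0.61 ± 0.22, limma adjusted p = 0.0498). The groups were apart only by a small gap, and the call held in 9 of 17 other fits. The call was lost without any of PBS library 1 (limma adjusted p = 0.201), PBS library 3 (0.347), cetuximab library 1 (0.25) and cetuximab library 3 (0.196), and with the GC trend removed (0.492). The ERBB2 promoter, shared with PGAP3, had 150, 93.4 and 64.2 against 49.4 and 73.7, and the ERBB3 promoter 138, 181 and 122 against 97.6 and 113. Their log2 changes of 0.67 ± 0.28 and 0.46 ± 0.23 did not pass the test (limma adjusted p = 0.101 and 0.194).

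Of 39 distal regions of these receptors, 5 were called lower and 1 higher (12.8% and 2.56%, against 7.57% and 2.75% of all). A region 22.7 kb from the EGFR start site, at chr7:55063399-55064025, had 33.0, 17.5 and 20.3 against 95 and 84.9 (log2 change -1.93 ± 0.37, limma adjusted p = 2.78e-05). It holds 2 copies of the AP-1 letters, all cetuximab libraries lay under PBS, and the call held in 17 of 17 other fits. Without PBS library 1 or PBS library 3, the 5 lower calls of the family became 1. The higher call, in an intron of ERBB2 2.56 kb from a start site, had 118, 87.6 and 90.8 against 65.1 and 43.5 (log2 change 0.87 ± 0.28, limma adjusted p = 0.0239), and was lost without PBS library 3 (adjusted p = 0.392) and without cetuximab library 1 (0.165).

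Genes of EGFR ligands had 20 distal regions, of which 3 were called lower and 1 higher (15% and 5%, against 7.57% and 2.75% of all). A region 1.63 kb from HBEGF, the heparin-binding ligand gene, had 17.8, 15.6 and 9.39 against 66.4 and 44.7 (log2 change -1.91 ± 0.46, limma adjusted p = 0.00168). The call was lost without PBS library 1 (limma adjusted p = 0.263). A region 77.3 kb from TGFA, the gene of transforming growth factor alpha, fell by 1.79 ± 0.41 (limma adjusted p = 0.000817), a call lost without PBS library 1 (0.0816) and PBS library 3 (0.0957). A region in an intron of EGF rose by 1.76 ± 0.47 on the log2 scale (limma adjusted p = 0.00465), a call lost without PBS library 3 (0.399). None of the 3 promoter regions of these ligand genes was called.

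ERK feedback and output genes, a list of phosphatases, Sprouty proteins and transcription factors that ERK induces, had 146 distal regions with 12 called lower and 4 higher (8.22% lower, near the 7.57% of all). Without PBS library 1, 5 were lower and 1 higher, and without PBS library 3, 3 and 1. A region 50.3 kb from DUSP5, which encodes a nuclear ERK phosphatase, had 87.6, 54.5 and 48.5 against 234 and 200 (log2 change -1.80 ± 0.25, limma adjusted p = 2.95e-09). A region 47.7 kb from MYC, the growth transcription factor gene, had 170, 154 and 163 against 325 and 313 (log2 change -0.97 ± 0.19, limma adjusted p = 5.51e-05). The cetuximab values spread widely near DUSP5 and little near MYC, all lay under PBS, and both calls held in 17 of 17 other fits. Of 38 promoter regions, 1 was higher and 2 were lower (2.63% and 5.26%, against 13.6% and 1.6% of all). The 2 lower regions were both at SPRED2, and neither kept its call with DESeq2, when centred or with the GC trend removed. The higher one was at FOSL1, with 183, 121 and 188 against 92.4 and 84.9 (log2 change 0.85 ± 0.23, limma adjusted p = 0.00585), and it was lost with the GC trend removed (adjusted p = 0.0866) and without any of PBS library 1 (0.0701), PBS library 3 (0.111), cetuximab library 1 (0.0786) and cetuximab library 3 (0.064).

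The genes of AP-1 factors themselves had 5 of 11 promoter regions called higher (45.5%, against 13.6% of all) and none lower. Their median log2 change was 0.81 against 0.18 over all promoter regions. With the GC trend removed 2 were called, and without PBS library 1 none. JUND had 165, 127 and 202 against 74.2 and 88.2 (log2 change 0.99 ± 0.23, limma adjusted p = 0.00118), a call lost with the GC trend removed (0.0566) and without PBS library 1 (0.091). The distal regions of AP-1 genes moved either way, with 6 higher and 7 lower of 56 (10.7% and 12.5%, against 2.75% and 7.57% of all). Without either PBS library, 3 were higher and 3 lower. A region 64.7 kb from JUN had 135, 160 and 122 against 334 and 291 (log2 change -1.17 ± 0.20, limma adjusted p = 1.91e-06). A region in HOOK2, 1.05 kb from the start site of JUNB, had 316, 204 and 274 against 122 and 132 (log2 change 1.03 ± 0.20, limma adjusted p = 3.34e-05). The cetuximab libraries lay all under PBS near JUN and all above PBS near JUNB. A region 36.4 kb from FOSL2 rose by 2.44 ± 0.46 on the log2 scale (limma adjusted p = 3.03e-05), and these 3 calls held in 17 of 17 other fits.

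TFAP2 factors, which take part in the growth and lineage of squamous cells, had no call among 6 promoter regions, while 13.6% of all promoter regions were called higher. Among their 27 distal regions 2 were called lower (7.41%, near the 7.57% of all). These 2 calls were lost without PBS library 1, without PBS library 3 and with the GC trend removed. The promoter of TFAP2A had 473, 485 and 549 after cetuximab and 526 and 499 after PBS, a log2 change of -0.03 ± 0.14 with a 95% interval from -0.30 to 0.24 (limma adjusted p = 0.928). Bypass receptors, kinases that can stand in for EGFR, had 1 of 15 promoter regions called higher (6.67%, against 13.6% of all). They had 9 lower and 4 higher calls among 128 distal regions. These distal shares of 7.03% and 3.13% lay near those of all distal regions, and the 9 lower calls became 0 without PBS library 1 and 1 without PBS library 3. The promoter of AXL had 135, 87.6 and 119 against 95 and 83.7 (log2 change 0.32 ± 0.25, 95% interval -0.17 to 0.82, limma adjusted p = 0.458), and the groups overlapped. RAS and PI3K pathway genes had 4 of 24 promoter regions called higher (16.7%, against 13.6% of all) and 4 of 49 distal regions called lower (8.16%, against 7.57%). These 4 and 4 became 2 and 1 without PBS library 1, and 2 and 0 without PBS library 3.

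Genes of mesenchymal cells had 14 of 94 distal regions called lower and 7 higher (14.9% and 7.45%, against 7.57% and 2.75% of all), with a median log2 change of -0.24 against -0.17 over all distal regions. The region 11.5 kb from VIM, the vimentin gene, had 14.0, 1.95 and 1.56 against 57.2 and 68.1 (log2 change -3.71 ± 0.65, limma adjusted p = 4.17e-06), with cetuximab libraries 2 and 3 at the floor of 1 read. The VIM promoter did not pass the test, at 35.5, 58.4 and 54.8 against 44.2 and 71.5 (log2 change -0.21 ± 0.33, 95% interval -0.85 to 0.43, limma adjusted p = 0.755). A region 11.5 kb from TGFBI, a matrix protein gene, had 17.8, 11.7 and 25 against 116 and 112 (log2 change -2.64 ± 0.38, limma adjusted p = 7.48e-09). In the other direction, a region in an intron of COL5A1, a fibrillar collagen gene, had 112, 93.4 and 114 against 33.8 and 32.4 (log2 change 1.65 ± 0.29, limma adjusted p = 6.13e-06). The groups were separate in each of these distal regions. Over the list, the 14 lower and 7 higher calls became 5 and 6 without PBS library 1, and 6 and 4 without PBS library 3.

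Keratins, the intermediate filament genes of epithelium, had the highest share of distal regions called higher among the 36 lists. The lists were chosen with earlier results of these data known, so this rank is a description. Of 18 promoter regions, 8 were higher (44.4%, against 13.6% of all) and none lower (against 1.6%). Of 43 distal regions, 16 were higher (37.2%, against 2.75% of all) and none lower (against 7.57%). The median log2 changes were 0.70 and 0.72, against 0.18 and -0.17 over all promoter and distal regions. In the same 10 Mb windows of chromosome 12, 6.45% (16 of 248) of the other distal regions were called higher against 11 of 30 near keratins, and on chromosome 17 it was 8.79% (16 of 182) against 5 of 13. For promoter regions, 21.5% (35 of 163) of the others on chromosome 12 and 36.6% (30 of 82) on chromosome 17 were called higher, against 4 of 10 and 4 of 8. With the GC trend removed, 8 promoter and 12 distal regions were called higher. The counts depend on the PBS libraries, with 1 and 1 without PBS library 1 and 4 and 3 without PBS library 3. The KRT5 promoter, of a basal keratin, had 127, 72.0 and 116 against 23.4 and 58.1 (log2 change 1.44 ± 0.29, limma adjusted p = 0.000133), and was lost without PBS library 1 (0.221). KRT17, of an activation keratin, had 199, 189 and 152 against 58.5 and 116 (log2 change 1.11 ± 0.23, limma adjusted p = 0.000165), and was lost without PBS library 1 (0.282). PBS library 1 was the lower of the PBS libraries at both promoters.

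Squamous lineage factors had 4 of 14 promoter regions called higher (28.6%, against 13.6% of all) and 10 of 67 distal regions called lower (14.9%, against 7.57%). The 4 became 1 without PBS library 1, 0 without PBS library 3 and 1 with the GC trend removed, and the 10 became 2, 4 and 7. A region 20.8 kb from BNC1, a basal keratinocyte zinc finger gene, had 105, 60.3 and 105 against 189 and 238 (log2 change -1.27 ± 0.23, limma adjusted p = 1.52e-05), and a region 89.2 kb from SOX2, a squamous stemness factor gene, had 35.5, 46.7 and 45.4 against 105 and 124 (log2 change -1.41 ± 0.30, limma adjusted p = 0.000222). Cornified envelope genes, the late products of keratinocytes, had 2 promoter regions called higher and 1 lower of 13 (15.4% and 7.69%, against 13.6% and 1.6% of all). These became 1 and 0 without either PBS library. TGM1, the transglutaminase that links the envelope, had 62.2, 66.2 and 92.3 against 20.8 and 22.3 at its start site (log2 change 1.70 ± 0.35, limma adjusted p = 0.000111). A region 2.7 kb from CRCT1 had 78.7, 33.1 and 59.5 against 222 and 231 (log2 change -2.06 ± 0.26, limma adjusted p = 3.87e-11). The cetuximab libraries lay on 1 side of the PBS libraries in each of these 4 regions. Desmosome genes had 4 of 14 promoter regions called higher (28.6%, against 13.6% of all). Of their 71 distal regions, 2 were higher and 2 lower (2.82% each, against 2.75% higher and 7.57% lower of all). Epithelial junction genes had 3 of 26 promoter regions higher (11.5%) and 4 higher and 8 lower distal regions of 110. Of the distal shares, 3.64% higher and 7.27% lower at junction genes lay near those of all regions. The 4 desmosome promoters became 1 without PBS library 1 and 2 without PBS library 3, and the 8 lower junction regions became 0 and 3.

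Genes for attachment to the basement membrane moved either way. The promoter of ITGB4, the integrin subunit of hemidesmosomes, had 286, 162 and 305 against 98.9 and 122 (log2 change 1.13 ± 0.21, limma adjusted p = 1.39e-05), and that of CD151, a tetraspanin partner of laminin-binding integrins, 136, 130 and 167 against 61.1 and 53.6 (log2 change 1.31 ± 0.25, limma adjusted p = 3.58e-05). A distal region 4.72 kb from LAMB3, a laminin-332 chain gene, had 27.9, 29.2 and 23.5 against 152 and 134 (log2 change -2.37 ± 0.32, limma adjusted p = 1.15e-09). These groups did not overlap. Over the list, 3 of 27 promoter regions were higher and 1 lower (11.1% and 3.70%, against 13.6% and 1.6% of all). Of 139 distal regions, 13 were lower and 4 higher (9.35% and 2.88%, against 7.57% and 2.75% of all). The 13 became 2 without PBS library 1 and 6 without PBS library 3. Matrix proteases had 6 of 71 distal regions called lower and 1 higher (8.45% and 1.41%), and 3 higher and 1 lower of 18 promoter regions (16.7% and 5.56%). Their 6 lower distal calls became 1 without either PBS library. The MMP1 promoter, of an interstitial collagenase, had 14.0, 3.89 and 9.39 against 44.2 and 39.1 (log2 change -2.22 ± 0.57, limma adjusted p = 0.00336), and was lost without PBS library 1 (adjusted p = 0.2) and PBS library 3 (0.112).

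The Hippo pathway had 14 of 140 distal regions called lower and 3 higher, and 2 lower and 3 higher promoter regions of 24. The share of distal regions called lower was 10% against 7.57% of all, and that of promoter regions called higher 12.5% against 13.6%. The 14 became 5 without PBS library 1, 4 without PBS library 3 and 8 with the GC trend removed. The promoter of WWTR1, which encodes the TEAD partner TAZ, had 102, 60.3 and 79.8 against 208 and 176 (log2 change -1.27 ± 0.24, limma adjusted p = 2.95e-05). The promoter of AJUBA, a LIM protein that restrains the LATS kinases, had 143, 125 and 171 against 61.1 and 69.2 (log2 change 1.14 ± 0.25, limma adjusted p = 0.000303). Neither promoter had overlapping groups. A region in an intron of AMOTL1, an angiomotin gene, had 80.0, 77.9 and 70.4 against 251 and 220 (log2 change -1.62 ± 0.24, limma adjusted p = 1.62e-08).

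NOTCH, TGF-beta and WNT genes had higher shares of distal regions called higher than the 2.75% of all. NOTCH genes had 11 of 92 higher and 10 lower (12% and 10.9%). TGF-beta genes had 11 of 167 higher and 7 lower (6.59% and 4.19%). WNT genes had 7 of 164 higher and 16 lower (4.27% and 9.76%). Of all distal regions 7.57% were lower, so the lower share was under that at TGF-beta genes and over it at NOTCH and WNT genes. Without PBS library 1 the higher calls were 2, 4 and 3 in turn, and without PBS library 3 they were 4, 8 and 1. The 16 lower WNT regions became 1 and 2 without these libraries and 4 with the GC trend removed, and the 10 lower NOTCH regions 1, 2 and 5. The NOTCH1 promoter, of the receptor, had 222, 115 and 254 against 80.7 and 78.2 (log2 change 1.22 ± 0.23, limma adjusted p = 2.83e-05), and the region in LFNG, a glycosyltransferase that modifies NOTCH, had 712, 576 and 696 against 379 and 341 (log2 change 0.87 ± 0.14, limma adjusted p = 2.76e-07). In RBPJ, the DNA-binding partner of NOTCH, an intronic region had 47.0, 54.5 and 31.3 against 180 and 145 (log2 change -1.88 ± 0.28, limma adjusted p = 4.8e-08). Among these genes, the groups were apart at all 3 places, as they were at nearly all called regions. Of the WNT genes, an intronic region of TCF7L1, a repressor of the TCF family, had 83.8, 75.9 and 73.6 against 9.11 and 4.47 (log2 change 3.40 ± 0.42, limma adjusted p = 9.7e-12). In the TGF-beta list, the promoter of ID3, an inhibitor of bHLH factors, had 140, 87.6 and 138 against 54.6 and 54.7 (log2 change 1.11 ± 0.27, limma adjusted p = 0.00134).

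Inflammatory cytokine genes had the lowest median among the distal lists with more than 50 regions, at -0.39. The lists were chosen with earlier results known, so this rank too is a description. Of 77 distal regions 11 were called lower (14.3%, against 7.57% of all) and none higher (against 2.75% of all). Of 18 promoter regions 2 were lower (11.1%, against 1.6% of all) and none higher (against 13.6%). The lower promoter calls were 1 with DESeq2, 1 with the GC trend removed and 2 when centred. A region 11.8 kb from IL1B, the interleukin-1 beta gene, had 19, 5.84 and 31.3 against 89.8 and 113 (log2 change -2.63 ± 0.41, limma adjusted p = 2.19e-07). The promoter of CSF2, the gene of the growth factor GM-CSF, had 7.62, 15.6 and 7.82 against 41.6 and 56.9 (log2 change -2.20 ± 0.53, limma adjusted p = 0.00127), a call lost without PBS library 1 (0.0756) and PBS library 3 (0.17). The cetuximab libraries were under PBS at both places. The 11 distal calls became 2 without PBS library 1 or 3, and 8 with the GC trend removed. Of the interferon-stimulated genes, 5 of 39 distal regions were called lower and none higher (12.8% lower, against 7.57% of all). Of 36 promoter regions 3 were higher and 2 lower (8.33% and 5.56%, against 13.6% and 1.6%). The 2 lower promoter calls became 0 with DESeq2, 1 when centred and 2 with the GC trend removed. The 5 lower distal calls became 3 with the GC trend removed. The STAT2 promoter, of an interferon signal carrier, had 377, 311 and 313 against 161 and 173 (log2 change 0.99 ± 0.18, limma adjusted p = 1.09e-05), and the region 20.3 kb from ISG20, an exonuclease gene, 48.2, 31.1 and 23.5 against 105 and 123 (log2 change -1.76 ± 0.32, limma adjusted p = 1.11e-05).

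At promoters of the lists for cell survival and upkeep, higher calls outnumbered lower calls as over all promoter regions, except at HOX genes and antigen presentation genes, where they were equal. The share to set beside each is the 13.6% higher of all promoter regions. It was 38.4% on chromosomes 17, 19 and 22 and 9.70% on the others. Those chromosomes held 1971 of the 14551 promoter regions tested. They held 52.0% of promoter regions at zinc finger genes, 37.0% at cholesterol and lipid genes and 27.6% at circadian and FOXO targets. At ribosomal protein, respiratory chain and BCL2 family genes they held 23.9%, 15.4% and 11.1%. The part of location in these shares was not tested. BCL2 family genes, which set the threshold for apoptosis, had 6 of 18 promoter regions called higher (33.3%), which became 1 without PBS library 1, 2 without PBS library 3 and 3 with the GC trend removed. BAX, of a pore-forming member that promotes cell death, had 104, 85.6 and 114 against 32.5 and 45.8 (log2 change 1.36 ± 0.29, limma adjusted p = 0.000246), a call lost without PBS library 1 (0.0539). Ribosomal protein genes had 20 of 71 promoter regions called higher (28.2%) and 1 lower, and 23 and 2 with the GC trend removed. Respiratory chain genes had 18 of 78 higher (23.1%), and 11 with the GC trend removed. Without PBS library 1 the higher calls of these lists were 8 and 9, and without PBS library 3 they were 18 and 8. Replication and mitosis genes had 10 of 52 higher (19.2%), which became 2 without either PBS library and 4 with the GC trend removed. The shares at G1 cyclins and CDK inhibitors (1 of 24, 4.17%), histone genes (6 of 50, 12%), HOX genes (1 of 21 higher and 1 lower, 4.76% each) and NRF2 genes (2 of 22 higher, 9.09%, and 1 lower) were under 13.6%. The 6 histone calls became 0 without PBS library 1, 4 without PBS library 3 and 14 with the GC trend removed. Zinc finger genes had 76 of 431 higher (17.6%) and 1 lower, 34 and 8 with the GC trend removed, and 20 and 32 higher without PBS library 1 and 3. Cholesterol and lipid genes had 6 of 27 (22.2%) and circadian and FOXO targets 8 of 29 (27.6%), each with 1 without PBS library 1, 4 without PBS library 3 and 3 with the GC trend removed. Antigen presentation genes had no call among 6 promoter regions.

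**Figure D5:**
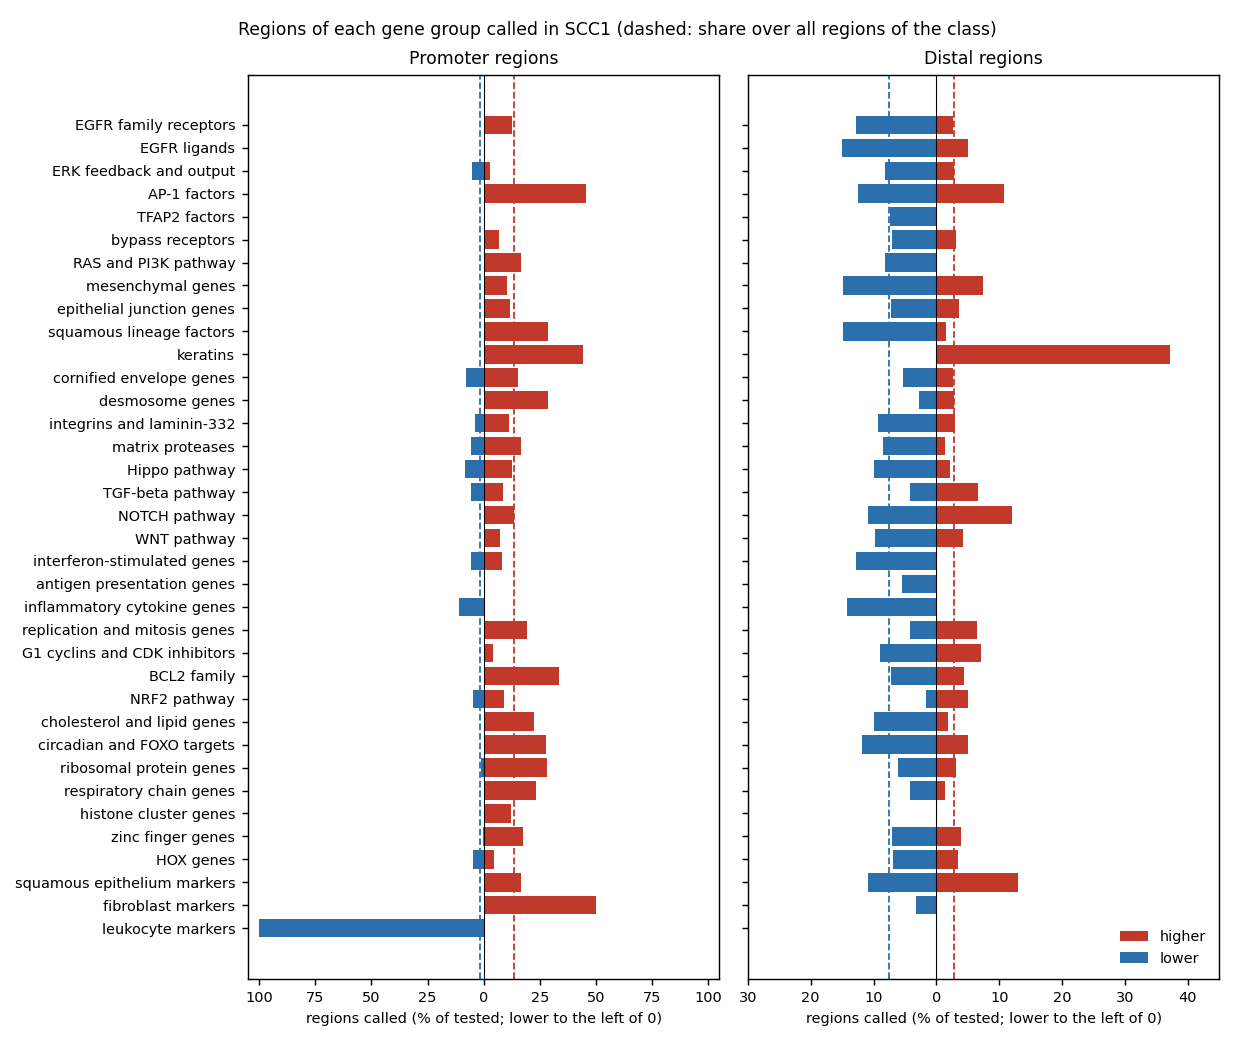
Share of tested regions called higher (right of 0) and lower (left of 0) after cetuximab for each gene list (percent), promoter and distal regions apart, with dashed lines for all tested regions (13.6% and 1.6% of promoter regions, 2.75% and 7.57% of distal regions). Keratins, with 8 of 18 promoter and 16 of 43 distal regions higher, lie to the right of the dashed lines, inflammatory cytokine genes have 11 of 77 distal regions lower and none higher, and the long leukocyte bar is 1 region, of CD14.

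The same regions in SCC6 and SCC25 gave a description of how far the pattern of SCC1 went. Promoter regions called higher in SCC1 had a median log2 change of -0.17 in SCC6 and 0.10 in SCC25, and 22.2% and 68.8% of them were positive there, against 33.0% and 54.1% of all promoter regions. Distal regions called higher had medians of 0.45 and 0.15, and 70% and 67.6% of them were positive against 51.0% and 40.5% of all distal regions. Distal regions called lower had medians of -0.35 and -0.27, and 68.7% and 79.8% of them were negative against 49.0% and 59.5% of all. These values rest on libraries of the other lines only, with no test of a difference between lines.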

How the data were processed

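ATAC-seq signal was compared between 3 SCC1 cetuximab and 2 SCC1 PBS libraries. Per the labels and the study's methods, the authors trimmed adapters (Trim Galore 0.5.0), aligned to hg19 (Bowtie2 2.3.2), removed duplicate and mitochondrial reads (Picard 2.18) and low-quality reads (SAMtools 1.9), used MACS2 for broad peaks per library, and DiffBind to merge the peaks into regions; the versions of the last 2 tools are not given in the sources used here. The deposited table holds a signal per region and library, scaled between libraries by the authors. All values equalled whole read numbers multiplied by 1 step per library (100% within a tolerance of 0.001), with a lowest value of 1 read. The deposited peak lists give a fold enrichment (ratio) per peak, and only the peaks' positions were used.

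The signal plus a pseudocount of 1 was tested on the log2 scale with limma 3.58.1 (trend, robust, two-sided) in R 4.3.3, with Benjamini-Hochberg adjustment over all 86321 tested regions at 0.05. The design named edgeR as the test for counts as deposited. Since the deposited unit is a scaled signal, limma was kept, and edgeR 4.0.16 and DESeq2 1.42.0 served as alternatives on the reads so recovered. Other alternatives were 3 scalings, removal of the GC trend of each library (its mean over libraries was added back), other filters, pseudocounts of 5 and 0.5, a fit of all 17 libraries, a replicate block, an adjusted p under 0.01, a promoter window of 3 kb, links within 50 kb and each library left out. The script was tested on simulated data.

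Start sites of protein-coding genes came from GENCODE release 44 mapped to GRCh37. A distal region was counted for a list when its nearest start site within 100 kb was of a member. Sequences were read from GRCh37, and letters were searched in the central 300 bases. Named regions are the 6 with the smallest adjusted p in each class and direction without overlap of the groups, up to 2 called regions per list, class and direction by adjusted p, the printed sequences, and the promoters of EGFR, ERBB2, ERBB3, TFAP2A, VIM and AXL. Of these, 1 distal region is not reported here. Members and lists were chosen with earlier results of these data known. Counts, searches and plots were made with matplotlib 3.10.9, pandas 2.3.3, numpy 2.4.6 and scipy 1.17.1 under Python 3.11.15.

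Reads in regions ranged from 2194851 to 4171650 per library, and a median of 7 to 15 reads limits the precision of low regions. Intervals from limma cover the spread between libraries only.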

Additional observations from a re-analysis of the deposited data

Results flagged for a closer look

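Of 136 named regions, 131 were called in SCC1. In 18 of the named regions, every library of SCC1 moved one way after cetuximab and every library of another line the opposite way. The share of all regions with this pattern was not counted, so the 18 cannot be set beside it. Most named regions were picked for their call in SCC1, which largely fixed the SCC1 side of the pattern. In SCC6, 67.0% of all tested promoter regions had a negative log2 change (median -0.12), so a negative value there is not particular to these promoters. The difference between lines was not tested. The values are log2 changes, and the other line is SCC6 unless SCC25 is named. Among regions that rose in SCC1, the promoter of PRMT1 had -0.26 in SCC6 (1.15 in SCC1), FOSL1 -0.59 (0.85), PLAUR -0.44 (0.61), NOTCH1 -0.42 (1.22), ZNRF3 -0.69 (1.09) and BAX -0.47 (1.36). Distal regions that rose in SCC1 had -0.14 near CNFN (0.93), -0.59 in DST (1.24) and, in SCC25, -1.27 near FOSL2 (2.44). Among those that fell, the promoter of ADTRP had 2.93 in SCC6 (-1.61 in SCC1), MT2A 1.00 (-1.06), VGLL4 0.54 (-0.70) and NALCN 0.29 (-1.94). Distal regions that fell had 1.11 near MYC (-0.97), 0.59 near ADAM19 (-2.03), 0.84 and 0.99 near CTNNB1 (-1.12 and -0.88) and, in SCC25, 0.95 near FGFR2 (-1.61). Some of these SCC1 calls were lost in other fits. PLAUR kept its call in 11 of 17 fits (limma adjusted p = 0.16 with the GC trend removed, 0.514 without PBS library 3) and VGLL4 in 10 of 17 (0.57 without PBS library 1, 0.0797 without PBS library 3, 0.182 when centred). FOSL1 lost it in 5 fits, CNFN, FGFR2 and the second CTNNB1 region in 2 each, and BAX, ZNRF3, DST and the first CTNNB1 region in 1 each, all with a library left out except FOSL1, which also lost it with the GC trend removed.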

How the results depend on the processing

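The counts of called regions kept their direction, with more promoter regions higher than lower in every fit and more distal regions lower than higher in every fit. The cause of each shift in size was not tested. Centring each library on its median gave 3393 higher and 114 lower promoter regions and 3459 higher and 3533 lower distal regions, and moved the median log2 change of all tested regions from -0.09 to 0.10. Removing the GC trend gave 1023 and 548 promoter regions and 3545 lower distal regions. An adjusted p under 0.01 left 1032 and 97 promoter and 917 and 2780 distal regions, higher and lower in turn. DESeq2 called 79 promoter and 2435 distal regions lower. With all libraries of the series in the fit, 366 promoter regions were lower and 3121 distal regions higher. With no filter 149 promoter regions were lower, and with a promoter window of 3 kb 456. Leaving out each library gave 492 to 3067 higher and 24 to 312 lower promoter regions, and 592 to 2392 higher and 880 to 6207 lower distal regions. The lowest counts came without PBS library 1 and the highest without cetuximab library 2.

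With a replicate block, 3206 promoter regions were higher and 333 lower, and 2633 distal regions were higher and 6279 lower. Number 2 had a cetuximab library alone, so this fit drew the change from the numbers 1 and 3. With no block, leaving out cetuximab library 2 gave 3067 and 312 promoter regions and 2392 and 6207 distal regions. Same-numbered libraries deviated together with r of 0.00077 and 0.0044, and no source ties them, so the numbers do not pair the libraries. Of the named regions, 62 of 131 kept their call in each of 17 fits. The TFAP2A promoter, which did not pass the test, changed sign to 0.068 with DESeq2, 0.16 when centred, 0.034 with edgeR, and ranged from -0.10 to 0.011 without each library. The VIM promoter ranged from -0.55 to 0.13. The median region held 7 to 15 reads, so small changes of low regions were not detectable at this depth.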

Other observations

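Some genes had several called distal regions within 100 kb. They were picked after their values were seen, by the number of calls, so the counts are a description. Over all, 49910 distal regions were linked to 12332 genes, of which 2456 had a region called lower, 1312 a region called higher and 221 both. BHLHE40, a clock and stress repressor gene, had 8 of 15 regions called lower, CREB5, a gene of the CREB family, 8 of 17, and RIN2, a gene of a RAB5 exchange factor, 8 of 25. MTAP, of the methionine salvage pathway, had 7 of 14 lower and ANK3, the gene of ankyrin-G, 7 of 32. In the other direction, SIK1, a salt-inducible kinase gene, had 7 of 13 regions called higher with log2 changes from 0.25 to 2.78, and none lower. BAIAP2, an adaptor gene of the actin cytoskeleton, had 5 of 8 higher. GADD45B, a stress response gene, and JAG2, a NOTCH ligand gene, each had 4 of 5 higher.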
